A study of Mus musculus with 4 samples.

Results

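The genes described here are those of the very low density lipoprotein receptor (Vldlr), of 7 members of the LRP family (Lrp1, Lrp4, Lrp5, Lrp6, Lrp8, Lrp10 and Lrp12) and of the sorting receptors sortilin (Sort1) and SorLA (Sorl1). They were taken by gene symbol from the annotation of the array, which gave 10 genes with 24 of its 56605 non-control probes. All 10 were among the 17660 genes or unnamed probes tested. RNA came from 4 cultures of aortic vascular smooth muscle cells grown by explant from adult C57BL/6J mice, and each culture was hybridised to 1 single-colour Agilent array. The 2 control cultures had no treatment for 24 h and the 2 others had PGE2 (prostaglandin E2) for 24 h. All 4 carried the genotype written as EP4-Tg, EP4 being a PGE2 receptor that signals through Gs and cyclic AMP. The labels do not name the promoter or the species of that transgene, the PGE2 dose or the number of animals behind a culture, and cells without the transgene were not analysed here. The design text calls the cultures biological replicates, and nothing in the labels says that they came from separate animals, so p-values measure the spread between these cultures only.

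Receptors of this family carry cysteine-rich ligand-binding repeats outside the cell and short tails with sorting signals inside it, and they take up ligands by endocytosis and release them in acid endosomes. Vldlr binds triglyceride-rich lipoproteins with the help of lipoprotein lipase, and both Vldlr and Lrp8 (also called ApoER2) are receptors for reelin. In vascular smooth muscle Lrp1 is known as a partner of the PDGF receptor and as a clearance receptor for proteases and their inhibitors. Lrp5 and Lrp6 are Wnt co-receptors, and Sort1 and Sorl1 move cargo between the Golgi and endosomes.

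The 250 bases before the first annotated start of Vldlr and of Sorl1 are shown because these genes lay on opposite sides of 0, each on more than 1 probe. They come from RefSeq on build GRCm38.p6, which is not the build of the array, and are written 5′ to 3′ on the strand of the gene. Capitals mark matches to TGACG, the core of the cyclic AMP response element, on either strand (CGTCA on the other) and to CACGTG, an E-box that reads the same on both strands. The Vldlr window is chr19:27216234-27216483 on the plus strand and the Sorl1 window is chr9:42124298-42124547 on the minus strand.
Vldlr: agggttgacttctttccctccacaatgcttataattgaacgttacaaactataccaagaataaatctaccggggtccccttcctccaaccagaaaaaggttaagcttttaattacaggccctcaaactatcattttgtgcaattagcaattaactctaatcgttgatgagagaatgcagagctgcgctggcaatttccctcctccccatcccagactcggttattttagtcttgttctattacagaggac
Sorl1: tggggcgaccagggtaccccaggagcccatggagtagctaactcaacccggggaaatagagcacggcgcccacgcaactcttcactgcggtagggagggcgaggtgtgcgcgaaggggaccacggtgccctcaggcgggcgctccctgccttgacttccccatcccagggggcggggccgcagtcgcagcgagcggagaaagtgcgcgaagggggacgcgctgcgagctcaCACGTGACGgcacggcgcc
The Vldlr window held neither motif, and the Sorl1 window held 1 of each, which overlapped. Of 32851 windows of 250 bases before annotated starts, 17.8% held TGACG, 6.02% held CACGTG and 1.55% held the full element TGACGTCA, which contains TGACG. The table held 9 starts for 5 of the 10 genes and none for Lrp4, Lrp5, Lrp6, Lrp12 or Sort1. Lrp12, the gene with the highest difference, could therefore not be searched. TGACG was also found before the single Lrp10 start and before 2 of 3 Lrp8 starts, not before the single Lrp1 start or the other Vldlr and Sorl1 starts, and TGACGTCA before none of the 9. These matches describe letters in a window and do not show binding.

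The values below are log2 signals relative to the 75th percentile of the array, given as control 1, control 2, PGE2 1 and PGE2 2, and a difference is PGE2 minus control, followed by its standard error from limma (n = 2 arrays per group). Levels of different probes cannot be compared, since probes differ in brightness. Vldlr was much lower with PGE2, by 10.6-fold on its brighter probe, while the other 9 genes lay between -0.0093 and 1.40. Lrp12 and Sorl1 stood highest, and Lrp5 and Sort1 were closest to 0. The group of genes was chosen from the values of this same comparison, in which Vldlr was already known to be much lower, so the differences describe the data and are not tests of the family. In bulk RNA, fewer cells of a type and less RNA per cell cannot be told apart.

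**Figure D1:**
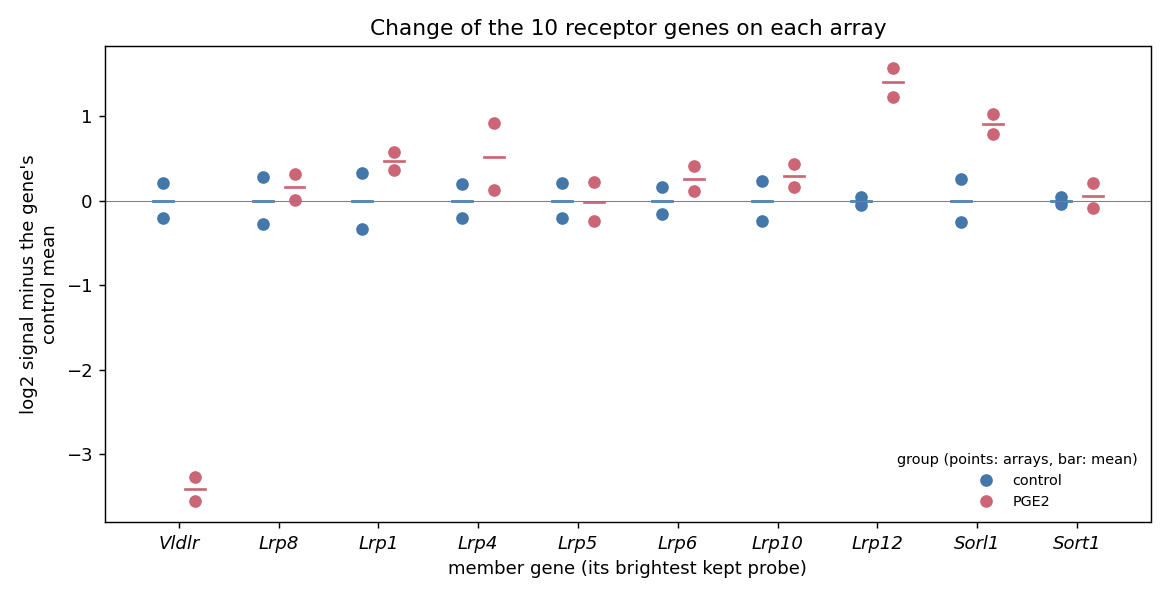
Log2 signal of each of the 10 genes on each array, minus the mean of the 2 control arrays for that gene, with points for arrays and short bars for group means (blue, control; red, PGE2). The 2 PGE2 points of Vldlr lie more than 3 units below its controls, those of Lrp12 and Sorl1 lie above all their controls, and most other genes overlap.

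Among all 17660 tested genes, limma called 118 (Benjamini-Hochberg adjusted p under 0.05), which is 0.668%. Of the 10 receptor genes, Vldlr was called lower, where 0.272% of all genes were called lower, and none was called higher, against 0.396%. At an unadjusted p under 0.05 there were 3 of the 10 genes, and 3151 of all 17660. Nothing about the family is read from these counts, since the comparison was known when the genes were proposed. Without control replicate 1 or without control replicate 2, limma called 0 of the 17660 genes (2712 and 2963 at an unadjusted p under 0.05), Vldlr included. The same held on the authors' scaled signal (0 calls, 4204 at an unadjusted p under 0.05) and when dim probes were kept in (0 calls, 2685). The 2 groups did not overlap in 4 of the 10 genes, higher with PGE2 in 3 and lower in 1, where 52.2% of all tested genes did not overlap. The median difference of the 10 genes was 0.28, beside -0.03 for all tested genes, and 8 of the 10 differences were above 0, where 47.3% of all genes were.

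**Figure D2:**
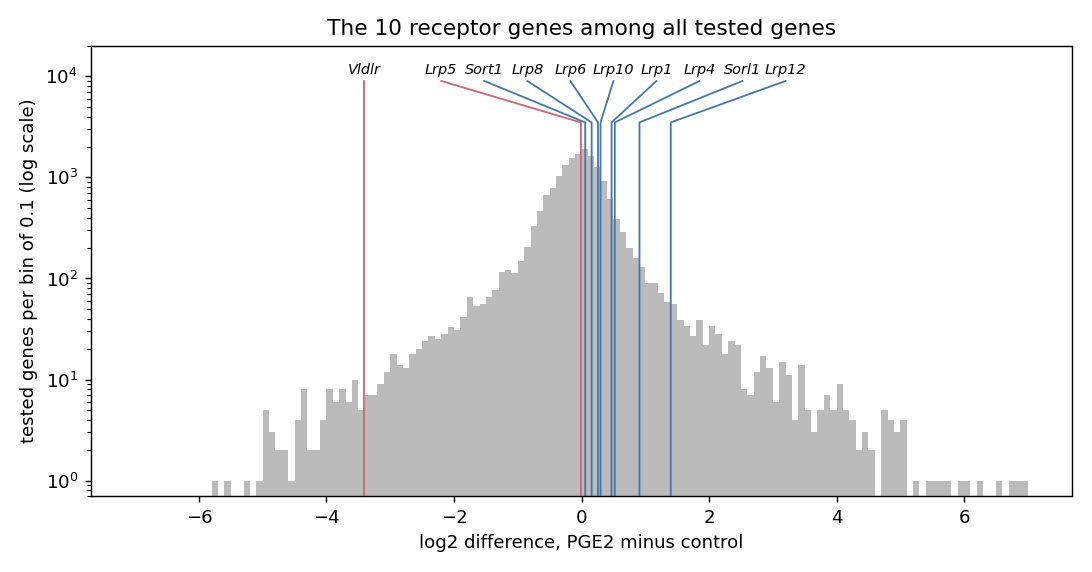
Number of tested genes in bins of 0.1 of the log2 difference (PGE2 minus control; log scale on the vertical axis), with the 10 receptor genes marked (red, below 0; blue, above 0). Vldlr lies in the lower tail at -3.41, Lrp12 in the upper tail at 1.40, and 7 of the other genes between -0.0093 and 0.52.

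Vldlr was the only member measured as lower by a wide margin. Its brighter probe, A_51_P278334 (cytoband 19qC1, target NM_013703), read 4.17, 3.75, 0.69 and 0.41. Both PGE2 arrays lay far below both control arrays, and the arrays of each group lay close together. The difference was -3.41 ± 0.23, and the SD within a group was 0.30 in control and 0.20 in PGE2. In the scanner's processed intensity the same probe gave 9148 and 8040.3 in control and 970.2 and 829.4 with PGE2, so that it stayed well above background on all 4 arrays. Only 79 of the 17660 tested genes had a lower difference.

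The second Vldlr probe, A_51_P500044, is designed on the same RefSeq transcript. It read 1.32, 0.87, -2.62 and -2.70, again with no overlap and above background on all 4 arrays. Its difference was -3.76 ± 0.22, or 13.5-fold lower. Both probes read the same RNA on the same 4 arrays, so the second is no further replicate. Leaving out 1 array at a time, the brighter probe ranged from -3.62 to -3.20.

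Lrp8, the other reelin receptor, had 4 probes that did not move alike. The probe that represents it, A_55_P2720770 (4qC7, target ENSMUST00000145832), read -2.66, -2.10, -2.37 and -2.06, a difference of 0.16 ± 0.27. The groups overlapped on it, and the difference was -0.12 without control replicate 1. A_55_P2014555, on NM_001080926, read -4.39, -4.50, -3.15 and -3.04. It was well above background on both PGE2 arrays and on neither control array, which makes it at least 1.66-fold higher with PGE2 against the lowest signal well above background on each control array or the probe's own, whichever was higher. A_55_P2730168, on the same transcript, went the other way at -3.80, -0.38, -4.10 and -5.37. It was well above background on the control arrays only, and no bound is given since control 2 alone was high. Its measured difference was -2.64 ± 1.26, or -0.93 without control replicate 2. On no array was the remaining probe, A_51_P145041, well above background. These probes give no single direction for Lrp8.

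Lrp1, the large endocytic receptor, read 4.001, 4.66, 4.69 and 4.91 on its brightest probe, A_51_P193794 (10qD3, target NM_008512). The PGE2 arrays were above both controls by a narrow margin, since PGE2 1 exceeded control 2 by little while control 1 was low. The difference was 0.47 ± 0.28, and 0.14 without control replicate 1. A dimmer probe, A_52_P202045, overlapped at 0.32 ± 0.39 and turned to -0.18 without control replicate 1. The dimmest, A_55_P1985633, read -3.08, -3.32, -2.02 and -1.92 and targets the clone AK153375. It stood higher on both PGE2 arrays by 1.23 ± 0.18, but was well above background on 1 of 2 control arrays.

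Lrp4 is the muscle receptor for agrin and also binds the Wnt inhibitor sclerostin. It was dim, and its representing probe A_52_P635078 (2qE1, target NM_172668) read -3.49, -3.09, -3.17 and -2.38. The groups overlapped, with PGE2 2 the highest, and the difference was 0.52 ± 0.34, ranging from 0.13 without PGE2 replicate 2 to 0.92 without PGE2 replicate 1. A second probe of that transcript variant, A_66_P139374, was well above background with PGE2 only and at least 1.15-fold higher. The probe of the other variant, A_55_P2680519 on NM_001145857, stood at -0.26 ± 0.21 with overlapping groups, and on no array was a further probe of it, A_55_P2503635, well above background.

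The Wnt co-receptors Lrp5 and Lrp6 differed little between the groups. Lrp5 on A_66_P104713 (19qA) read 1.79, 1.38, 1.81 and 1.34, so that each PGE2 array had a control array beside it. Its difference was -0.0093 ± 0.26, and its second probe stood at -0.19 ± 0.55. On A_66_P104713 the sign turned without control replicate 1 (0.19) and without PGE2 replicate 2 (0.22). It also turned on the authors' scaled signal, which raised the difference of every gene by the same amount. Lrp6 on A_55_P2118391 (6qG1) read 2.43, 2.76, 2.70 and 2.998, with overlap between control 2 and PGE2 1. Its difference was 0.26 ± 0.21, ranging from 0.096 without control replicate 1 to 0.42 without control replicate 2. The second Lrp6 probe, A_55_P2041360, on the same transcript, stood at 0.36 ± 0.19 with both PGE2 arrays above both controls.

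Lrp10 and Lrp12 are smaller receptors of the family with CUB domains beside the ligand-binding repeats, and each had 1 probe. Lrp12 on A_51_P200484 (15qB3.1) read -0.64, -0.73, 0.89 and 0.54. Both PGE2 arrays lay above both control arrays, which lay close together. The difference was 1.40 ± 0.19, or 2.64-fold, ranging from 1.22 to 1.58 when 1 array was left out. It did not pass over all genes, and 528 genes had a higher difference. Lrp10 on A_51_P430357 (14qC3) read 3.27, 2.79, 3.47 and 3.19, with overlap. Its difference was 0.30 ± 0.24, ranging from 0.061 without control replicate 2 to 0.54 without control replicate 1.

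The sorting receptors Sorl1 and Sort1 share the VPS10 domain, and Sorl1 also carries the ligand-binding repeats of the family. Sorl1 on A_55_P2151609 (9qA5.1, target NM_011436) read 0.17, 0.68, 1.45 and 1.22, with both PGE2 arrays above both controls. The difference was 0.91 ± 0.24, or 1.88-fold, and it did not pass over all genes. Its second probe, A_66_P123824, read -1.63, -0.998, -0.25 and -0.31, a difference of 1.04 ± 0.27. Both probes had control 1 as the lowest array. Sort1 on A_55_P2503990 (3qF3) read 2.82, 2.74, 2.69 and 2.98. Its difference was 0.06 ± 0.18 with overlap, or -0.09 without PGE2 replicate 2. A probe of the other Sort1 variant, A_55_P2927762, stood at -0.04 ± 0.33, and a further probe had an outlier flag on control 2 and was left out.

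Over the 24 probes, 21 passed the filter and 17 were well above background on all 4 arrays. Of the 21, the groups did not overlap on 11, higher with PGE2 on 8 and lower on 3, where 51.1% of all 26100 kept probes did not overlap. The 3 lower ones were the Vldlr probes and the Lrp8 probe that rested on control 2. That Lrp8 probe passed the filter through the control arrays only. Of the higher ones, A_55_P2014555 (Lrp8), A_66_P139374 (Lrp4) and A_55_P1985633 (Lrp1) passed through the PGE2 arrays only. The direction of these probes is therefore bound up with the filter, and probes of the same gene are not independent.

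**Figure D3:**
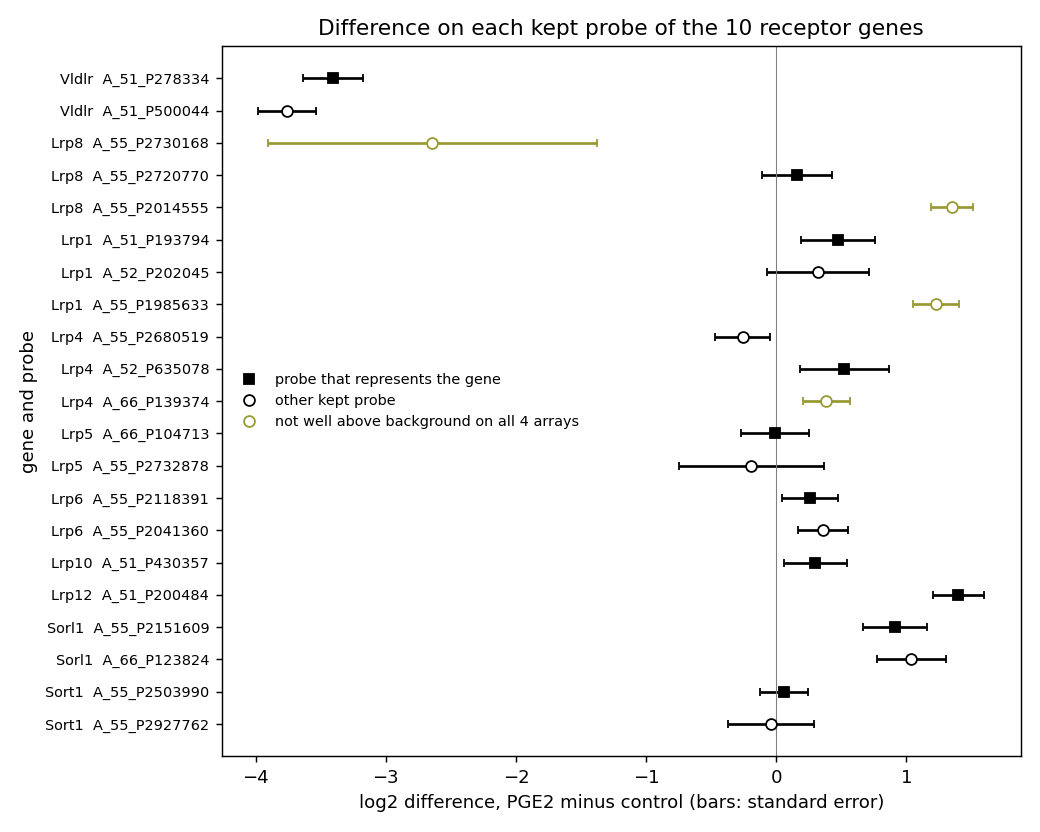
Log2 difference (PGE2 minus control) and standard error of the 21 probes of the 10 genes that passed the filter, named by gene and probe, with filled squares for the probe that represents its gene. Both Vldlr probes lie below -3, both Sorl1 probes near 1, and the Lrp8 probes spread from -2.64 to 1.35.

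The tested genes with array values most like those of Vldlr were taken by the root mean square difference over the 4 arrays, after each gene's mean was subtracted. They were Sult1a1, a sulfotransferase gene (0.15), Inmt, a methyltransferase gene (0.15), Edn1, the endothelin 1 gene (0.21), Dmrtc1c2 (0.22) and the type IV collagen gene Col4a4 (0.22). Sult1a1 was well above background on all 4 arrays, at 1.34, 0.95, -2.13 and -2.07. In the other 4 only the control arrays were well above background, so their PGE2 values are signals below background and their likeness rests on unmeasured levels. Against background they were at least 2.37-fold (Inmt), 10.4-fold (Edn1), 2.24-fold (Dmrtc1c2) and 2.69-fold (Col4a4) lower with PGE2. Genes were picked here for a pattern like that of Vldlr, so their being lower followed from the choice.

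The other genes of the pathway were counted in 6 lists of 102 genes in all, of which 82 were tested. Of these, 0 were called higher and 1 lower, beside 0.396% and 0.272% of all tested genes, and the median difference was -0.03. The groups did not overlap in 20 genes that were higher and 31 that were lower, where 24.0% and 28.3% of all genes did not. The lists were written with earlier results of these data known.

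**Figure D4:**
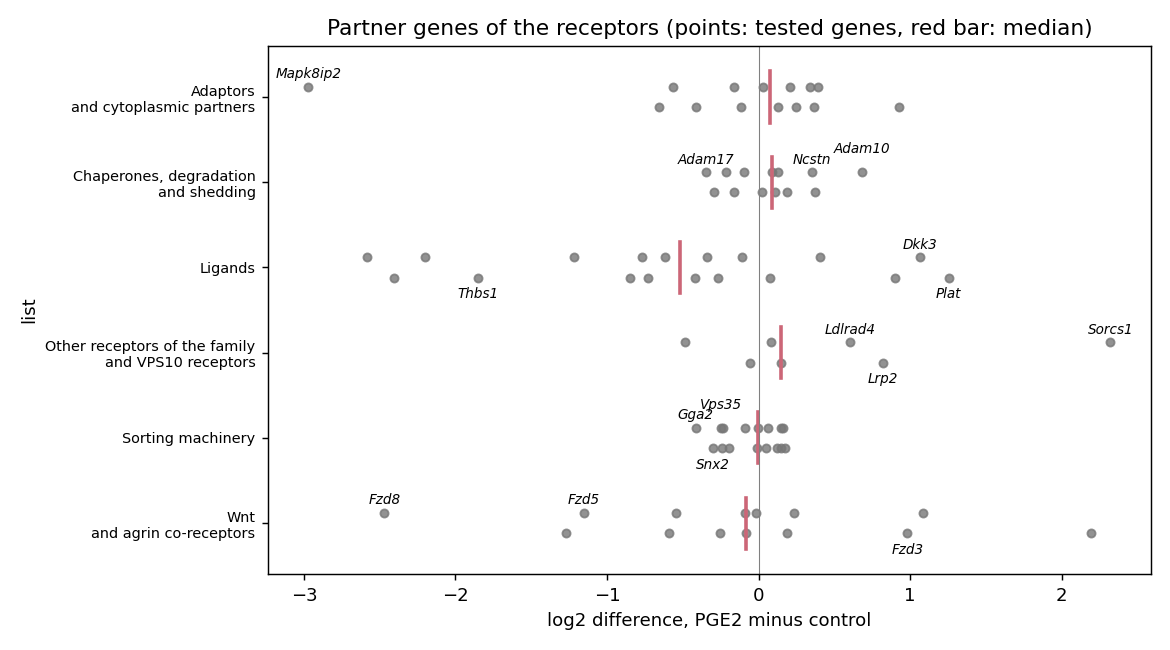
Log2 difference (PGE2 minus control) of the 82 tested partner genes in 6 lists, with a red bar at each median and the genes described in the text named. The ligand genes have the lowest median, -0.52, and the sorting machinery genes lie close to 0.

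Among other receptor genes of the LRP and VPS10 families and the Ldlrad genes, 7 of 11 were tested and none was called by limma, with a median of 0.15. Sorcs1, a neuronal VPS10 receptor gene, stood at 2.32 ± 0.77 (adjusted p = 0.251, limma) with PGE2 2 the highest array at 0.08, or 1.42 without that array, and its second kept probe at 1.59. Lrp2, which encodes megalin, stood at 0.82 ± 0.25 (adjusted p = 0.227) on 1 of 5 probes, and at 0.29 with normexp (adjusted p = 0.589), and Ldlrad4 at 0.60 ± 0.21 (adjusted p = 0.263).

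Ligand genes had 18 of 27 tested and 0 called by limma. Their median difference was -0.52, and 13 of the 18 were below 0. Thbs1, the thrombospondin 1 gene, read 5.04, 5.03, 3.47 and 2.90, a difference of -1.85 ± 0.25 (adjusted p = 0.0812), and both PGE2 arrays lay below both controls. Plat, the tissue plasminogen activator gene, whose product Lrp1 clears, stood at 1.25 ± 0.19 (adjusted p = 0.0930). Dkk3 stood at 1.07 ± 0.21 (adjusted p = 0.133), and its other 2 probes at 1.51 and 1.57. It was listed with Dkk1, Dkk2 and Dkk4, which were not tested, and is not taken here as a ligand of Lrp5 or Lrp6. The reelin gene Reln, named after its values were seen, did not pass the filter and was not tested, like its adaptor gene Dab1 in the next list.

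Of 16 adaptor and cytoplasmic partner genes 14 were tested and 1 was called. Mapk8ip2, a scaffold gene of the JNK pathway whose product binds the tails of Lrp8 and Lrp2, read -3.53, -3.51, -6.40 and -6.57. It was well above background on the control arrays only and was called lower (adjusted p = 0.0438, limma), a call lost when control replicate 1 was left out (-2.98, adjusted p = 0.144) or control replicate 2 (-2.96, adjusted p = 0.107), where the spread comes from the PGE2 arrays alone and the lone control is assumed to vary like them. It was also lost on the authors' scaled signal (-2.71, adjusted p = 0.0564), and with normexp background correction the difference shrank to -0.63 (adjusted p = 0.112). A second probe, which did not pass the filter, was above background on 1 PGE2 array and stood at -0.03, so no bound is given. With dim probes kept in, that probe represents the gene. The list median was 0.08.

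Of the 14 genes of receptor chaperones, degradation and shedding, 13 were tested and none was called by limma (median 0.09). Adam10, the gene of a protease that sheds receptors of this family, stood at 0.69 ± 0.17 (adjusted p = 0.180) with both PGE2 arrays above both controls, and its second probe at 0.84. The gamma-secretase subunit gene Ncstn stood at 0.35 ± 0.15 (adjusted p = 0.328), and the protease gene Adam17 at -0.34 ± 0.16 (adjusted p = 0.368), with its other probes at -0.55 and 0.06. On the authors' scaled signal these became 0.61 for Ncstn and -0.09 for Adam17. All 16 sorting machinery genes were tested and none was called (median -0.0064). Of these the Golgi adaptor gene Gga2 stood at -0.41 ± 0.20 (adjusted p = 0.364), and the retromer genes Snx2 and Vps35 at -0.30 ± 0.15 and -0.25 ± 0.16 (adjusted p = 0.386 and 0.478), and on the authors' scaled signal these 3 stood at -0.16, -0.045 and 0.013.

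Of 18 Wnt and agrin co-receptor genes, 14 were tested and none was called by limma (median -0.08). The frizzled genes, whose products pair with Lrp5 and Lrp6 to bind Wnt proteins, stood on both sides of 0. Fzd8 read 2.29, 1.12, -0.76 and -0.76, a difference of -2.47 ± 0.43 (adjusted p = 0.114) with no overlap, and Fzd5 stood at -1.15 ± 0.16 (adjusted p = 0.0826). Fzd3 stood at 0.98 ± 0.20 (adjusted p = 0.144). The second probes of Fzd8 and Fzd5 stood at -2.97 and -1.79, that of Fzd8 above background on 1 of 2 PGE2 arrays.

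The cell type of the labels was checked against markers. Of 10 smooth muscle markers 7 were tested, each with signal above background on all 4 arrays and a difference below 0. Myh11 was above background on 1 control and 1 PGE2 array, Lmod1 on 1 control array and Des on 1 PGE2 array. Myh11, Lmod1 and Des did not pass the filter. The summed level of the 7 tested markers, in units of the 75th percentile of the array, was 615 to 1023 in control and 225 to 322 with PGE2. Such a sum over probes is set mostly by the brightest of them. For 4 of 5 fibroblast markers it was 164 to 269 and 91.9 to 95.9, with Dcn at -2.91 and Lum at -2.17, while Pdgfra stood at 0.60 and Col1a1 at -0.0052, both with overlapping groups. For 4 of 6 macrophage and leukocyte markers the sum was 62.2 to 75.5 and 38.9 to 58.2, and the genes went both ways without overlap. Cd68 stood at 2.09 and Csf1r at 0.98, Ptprc at -0.36 and Itgam, the brightest probe, at -0.61, with a median of 0.31 and Adgre1 and Lyz2 above background on no array. Of 6 endothelial and 5 adipocyte markers 1 each was tested, Pecam1 at 0.0820 to 0.0934 in control and 0.0706 to 0.0878 with PGE2, and Lep at 0.301 to 0.307 and 0.275 to 0.276. The endothelial genes Tek and Tie1 and the adipocyte genes Adipoq, Plin1 and Cidec were above background on no array. The endothelial genes Cdh5 and Vwf were above background on 1 PGE2 array each, and Kdr on 1 control array. The adipocyte gene Fabp4 was above background on 1 control and 1 PGE2 array, and none of these passed the filter. The part of the moving marker levels in the Vldlr, Lrp12 and Sorl1 differences was not tested. Of the 59305 non-control spots, 47.9% to 53.8% per array passed the background test and 0 were saturated, and 2 arrays per group limit the precision of every value.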

How the data were processed

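The authors deposited a scanner file per array, which holds the background-corrected intensity of each spot, and a series table of scaled intensity. In it each array's processed intensity is multiplied by a constant, 0.964 for control 1, 0.945 for control 2, 1.07 for PGE2 1 and 0.990 for PGE2 2, which gives medians of 32.7, 42.9, 39.9 and 40.5. The scanner files were written by Feature Extraction 11.5.1.1 per the file headers; the submitters' processing notes give 12.0.3.1. The deposited flags of the scanner software (other values, 0 or 1) gave the calls above background, and 4 columns of detection codes were not used.

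Groups came from the sample titles. Replicate spots, present for 300 probes, were averaged, and outlier flags removed 158 probes. Values are log2 intensity minus the 75th percentile of each array. A filter kept 26100 probes that passed the background test on both control or both PGE2 arrays, and the kept probe with the highest mean represents a gene. Of 47700 spots with a symbol, 44970 matched the gene IDs of RefSeq assembly GRCm38.p6, which updated 2199 symbols. The comparison used limma 3.58.1 in R 4.3.3 over 17660 genes without a replicate block, with Benjamini-Hochberg adjustment, a threshold of 0.05, and 2 residual degrees of freedom moderated by 2.15 prior ones. The fit was also run on simulated arrays with known changes and independent noise. These had no shared deviation between same-numbered arrays, so they do not check the calls made here.

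The genes and the lists were chosen with earlier results of these data known. The naming rule took all 10 receptor genes, the called genes of each list or otherwise up to 3 with the smallest p among those measured on all arrays without overlap, and the 5 genes most like Vldlr. A further gene it named is not reported here and was left out of the lists. The scanner files hold no mean signal, so normexp was run on median signals. The 12 alternatives were quantile normalization, median centring, normexp, the authors' scaled signal, both other filters, the mean of all kept probes, the replicate block and leaving out each array.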

Additional observations from a re-analysis of the deposited data

How the results depend on the processing

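The Vldlr difference stayed between -3.62 and -3.15 under all 12 alternatives, not all of which could move it. Under both other filters and the replicate block it was the same -3.41. Its brightest probe passed either filter, and the block leaves a difference of group means unchanged. Over all genes limma called 54 with the filter for all 4 arrays, 0 on the authors' scaled signal (4204 at an unadjusted p under 0.05), 0 with dim probes kept in (2685), and 0 to 174 with 1 array left out. On the authors' scaled signal, with dim probes kept in, without control replicate 1 and without control replicate 2, limma called 0 receptor genes (3, 3, 2 and 4 of the 10 at an unadjusted p under 0.05), a range of 0 to 1 with 1 array left out. Of the partner genes 0 were called with normexp (21 at an unadjusted p under 0.05), on the authors' scaled signal (21), with dim probes kept in (12) and with the filter for all 4 arrays (18), and 0 to 2 with 1 array left out (17 at an unadjusted p under 0.05 when either control replicate was dropped). The authors' scaled signal put the median of all genes at 0.23, against -0.03. On it Vldlr stood at -3.15, Lrp6 at 0.52, Lrp12 at 1.66, Sort1 at 0.32 and Vps35 at 0.013. That signal multiplies each array by a constant, so the difference of every gene rose by the same amount. The values given above for Lrp5, Ncstn, Adam17, Gga2 and Snx2 on it carry this shift too. With the mean of all kept probes Lrp8 stood at -0.38. With the replicate number as a block, 172 genes were called, of which 84 were among the 118, and Vldlr was called as before, with no other receptor gene. Same-numbered arrays deviated together (r = 0.42 across genes, which are not independent replicates), but 2 pairs cannot show that the numbers mark shared cultures. The other causes were not tested. Dim probes, among them those of Lrp4 and Lrp8, limit what can be said of these genes.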
